A study of Rattus norvegicus with 9 samples.

Results

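The subject of this report is the spread of transcript levels among retinas of one group, as opposed to the difference between group means. Retinas of male Sprague-Dawley rats were measured 3 months after intraperitoneal injection. The Control group (5 arrays, Control 1 to 5) had received citrate vehicle, and the diabetic group (4 arrays, STZ 1 to 4) had received 65 mg/kg streptozotocin (STZ), a toxin of the insulin-producing beta cells. Each rat contributed 1 array of Illumina RatRef-12 BeadChips. A further diabetic array (1) had been discarded in the authors' quality control. Animal age is not given in the labels. Of 22226 probes, the 9496 (42.7%) detected at p under 0.05 on every one of the 9 arrays were compared, and 6784 of these carried a gene symbol, for 6745 genes. All levels are log2 intensities after quantile normalization, and the SD of a probe is taken over the 5 Control or the 4 STZ arrays. STZ diabetes is a chemical lesion of the pancreas in an outbred stock, so rats within a group are not genetically identical.

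The retina is built of photoreceptors, inner neurons, Müller glia and a few vascular and microglial cells. It lies between the lens and the pigment epithelium, and at its front edge it joins the ciliary body. A dissected retina therefore holds RNA of its own cells and may hold RNA of these neighbors and of blood. The RNA of a whole retina was measured, so fewer cells of a type and less RNA per cell cannot be told apart. Photoreceptor genes were among the brightest, with Sag (rod arrestin) between 13.85 and 14.16 on all arrays and Gnat1 (rod transducin) between 12.48 and 12.90 on the STZ arrays.

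Array medians before normalization were 70.0 to 87.9 intensity units, and 10843 to 11609 probes were detected per array. BeadChip 1 held Control 1 to 3 and BeadChip 2 held Control 4 and 5 with all STZ arrays. STZ 1 stood apart from the other STZ arrays. It carried 33.7% of the squared deviations within the STZ group, against 20.4% to 24.0% for STZ 2 to 4. Single Control arrays carried 16.6% to 23.6% of those within their group. The STZ shares divide over 4 arrays and the Control shares over 5, so shares of different groups are not directly comparable. Results named below as resting on STZ 1 are given with and without it.

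After quantile normalization, arrays of diabetic retinas varied more among themselves than arrays of Control retinas did. The mean absolute deviation of an array from its group mean, over all probes and scaled for group size, was 0.113, 0.119, 0.0966, 0.0899 and 0.101 log2 units for Control 1 to 5. It was 0.160, 0.122, 0.124 and 0.129 for STZ 1 to 4. Every STZ array lay above every Control array. The group means were 0.104 ± 0.0118 (SD, n = 5) and 0.134 ± 0.0178 (SD, n = 4), a difference of 0.0300 (exact permutation test over all splits of the 9 arrays, two-sided, p = 0.0159, where 0.00794 is the smallest p possible). The values of one group share its mean and are not fully independent. Without STZ 1 the difference was 0.0155 (exact permutation p = 0.0714). When arrays were only centered on their medians, it was 0.0171 (exact permutation p = 0.389). With deviations taken from arrays on the same BeadChip it was 0.0294 (exact permutation p = 0.00794), and on BeadChip 2 alone it was 0.0399 (exact permutation p = 0.0667, with 15 splits).

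**Figure D1:**
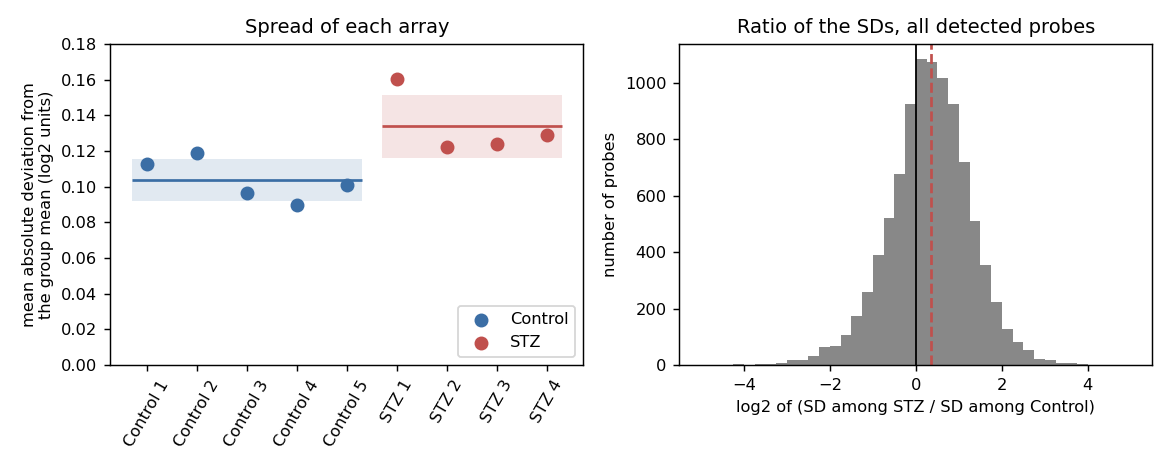
Left, mean absolute deviation from the group mean (log2 units) of each array over 9496 probes, with the group mean (line) and 1 SD (shaded). Every STZ array lies above every Control array, and STZ 1 is the highest at 0.160. Right, number of probes by the log2 ratio of the SD among STZ to the SD among Control arrays, with 0 (solid line) and the median of 0.34 (dashed line).

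The wider spread was shared by many probes. The median SD was 0.105 among Control and 0.135 among STZ arrays, and the SD was larger among STZ arrays for 6228 probes (65.6%) and among Control arrays for 3268 (34.4%). It was at least 2-fold larger among STZ arrays for 2130 probes (22.4%) and at least 2-fold larger among Control arrays for 755 (7.95%). SDs of 4 and 5 values are imprecise: for a probe with equal true SDs and normal errors, 95% of STZ to Control ratios lie between 0.257 and 3.16. Ratios above that range were found for 653 probes (6.88%) and below it for 155 (1.63%). Without STZ 1, 53.8% of probes had the larger SD among STZ arrays, and 1581 were at least 2-fold larger among STZ against 1574 among Control arrays. With median centering, 1335 were at least 2-fold larger among STZ and 1036 among Control arrays, and the median log2 SD ratio was 0.08 in place of 0.34.

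Brightness moved with the result, and its part in it was not tested. The share of probes with a larger STZ SD was 52.7% among the dimmest 2374 probes and 66.5%, 72.2% and 71.0% in the following sets of 2374. By limma on the means (adjusted p under 0.05), 562 probes (5.92%) were higher and 421 (4.43%) lower in STZ. The STZ SD was larger for 72.8% of the higher probes, 68.2% of the lower probes and 65% of the 8513 probes without a called difference in mean.

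Probe by probe, absolute deviations from the group mean were compared by limma's moderated test with Benjamini-Hochberg adjustment over all 9496 probes. At an adjusted p under 0.05, 10 probes (0.105%) were wider in STZ and 6 (0.0632%) wider in Control. At an unadjusted p under 0.05 the counts were 982 (10.3%) and 205 (2.16%). The deviations of 4 arrays sum to 0, so this test gives its smallest p to genes with a pair of high and a pair of low arrays and a larger p to genes set apart by a single array. Its p-values are approximate at this group size. Without any single STZ array, 0 probes were called wider in STZ. The pattern of pairs cannot occur once an STZ array is left out, so that 0 was in part set by the test. A ratio of variances (F test) called 0 in either direction.

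Lamtor5, a subunit of the Ragulator complex that anchors mTORC1 to lysosomes, had the smallest p. Its levels were 10.06, 10.08, 10.16, 10.13 and 10.18 on Control 1 to 5 and 11.38, 10.11, 11.45 and 10.19 on STZ 1 to 4. Thus STZ 1 and STZ 3 stood more than 1 log2 unit above all other arrays, while STZ 2 and STZ 4 lay at the Control level. The SD was 0.0530 among Control and 0.729 among STZ arrays (limma adjusted p = 2.7e-06), and the mean did not pass the test (difference 0.66, adjusted p = 0.11). Without each STZ array in turn its adjusted p was 0.0902 to 0.14.

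The same pair, STZ 1 and STZ 3, was high for 3 of the other called genes. Lims1 (an adaptor of integrin adhesions) had STZ levels of 9.69, 8.80, 9.83 and 8.48 against Control levels of 7.69 to 7.91, with SDs of 0.663 and 0.0891 (limma adjusted p = 0.012). Optn (an autophagy receptor) had 11.59, 11.07, 11.51 and 11.04 against 11.18 to 11.31, so that its STZ pairs lay on either side of all Control arrays. Bloc1s6 (a subunit of a complex in lysosome-related organelle biogenesis) had 9.54, 8.84, 9.62 and 8.88 against 8.13 to 8.44.

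The other called genes had other high pairs. For Gyg1 (glycogenin, the primer of glycogen synthesis) STZ 2 and STZ 3 were high, with 10.25, 10.70, 10.76 and 10.30 against Control levels of 10.12 to 10.18 (SD 0.263 against 0.0215, limma adjusted p = 0.012). Ifi27l2b, a member of the interferon-inducible Ifi27 family, split the same way, with 7.96, 8.71, 8.98 and 7.95 against Control levels of 7.57 to 7.84. So did Chdh (choline dehydrogenase), with 7.45, 8.34, 8.17 and 7.55 against 6.81 to 7.10. STZ 2 and STZ 4 were the high pair for Srpk3, a protein kinase of SR splicing factors (7.84, 8.50, 7.84 and 8.59), for Unc5c, a netrin receptor (9.49 and 9.53 against 9.10 or less on STZ 1 and 3), and for Dcps, the scavenger decapping enzyme (8.33, 8.98, 8.46 and 8.91). The limma adjusted p of the last 5 genes lay between 0.013 and 0.04. All 10 genes had 2 high and 2 low diabetic retinas, the pattern this test favors. STZ 1 and 3 were divided from STZ 2 and 4 by 7 of them, in either direction, and STZ 2 and 3 from STZ 1 and 4 by 3.

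Other genes had their largest gap between a single diabetic retina and the others, and those named here did not pass the adjusted test. Nupr1, a stress-induced chromatin protein, was at 10.83, 11.48 and 10.61 on STZ 1 to 3 but at 8.56 on STZ 4, near the Control levels of 7.58 to 8.16. Its SD was 1.26 among STZ and 0.222 among Control arrays (limma adjusted p = 0.29). STZ 4 was also the low array for Ripply3, a transcriptional corepressor, with 8.56, 8.88, 8.75 and 6.88 against Control levels of 6.68 to 7.04. Hmox1 (heme oxygenase) had 9.90, 8.92, 9.51 and 8.19 against 6.36 to 6.82. Ass1 (argininosuccinate synthase) had 11.25, 11.26, 11.13 and 10.32 against 10.11 to 10.16. Grn (progranulin) had 9.80, 9.74, 9.48 and 9.12 against 8.94 to 8.97, the largest SD ratio among genes with an STZ SD of at least 0.3 (log2 ratio 4.84, or 1.72 with median centering). For Hmox1, Ass1 and Grn, STZ 4 remained above every Control array, and the STZ levels of Hmox1 and Grn were graded. Of the 200 probes with the largest STZ SD, 23 had STZ 1 to 3 on the high side of their largest gap, the second most frequent pattern.

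The most frequent pattern was STZ 1 high alone, with 35 of these 200 probes. STZ 1 was the farthest array from the group mean for 71 of them, STZ 2 for 48, STZ 3 for 24 and STZ 4 for 57. Optc (opticin, a matrix protein secreted by the ciliary epithelium) was at 11.55 on STZ 1 and at 9.89, 9.66 and 9.40 on STZ 2 to 4, with Control levels of 9.45 to 9.74. Its log2 SD ratio of 2.97 became 0.996 without STZ 1. Sod3 (extracellular superoxide dismutase) was at 11.03, 9.77, 9.71 and 9.42, and Ltbp2 (an extracellular matrix protein of microfibrils) at 11.39, 10.24, 10.49 and 10.04. The log2 SD ratio of Sod3 was 1.95 with and 0.01 without STZ 1, and that of Ltbp2 was 3.84 with and 2.43 without it. The reverse pattern, STZ 1 low alone, held 22 probes, among them C1s and Cp. STZ 4 high alone held another 22, among them Spp1, Stc1 and the globins.

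**Figure D2:**
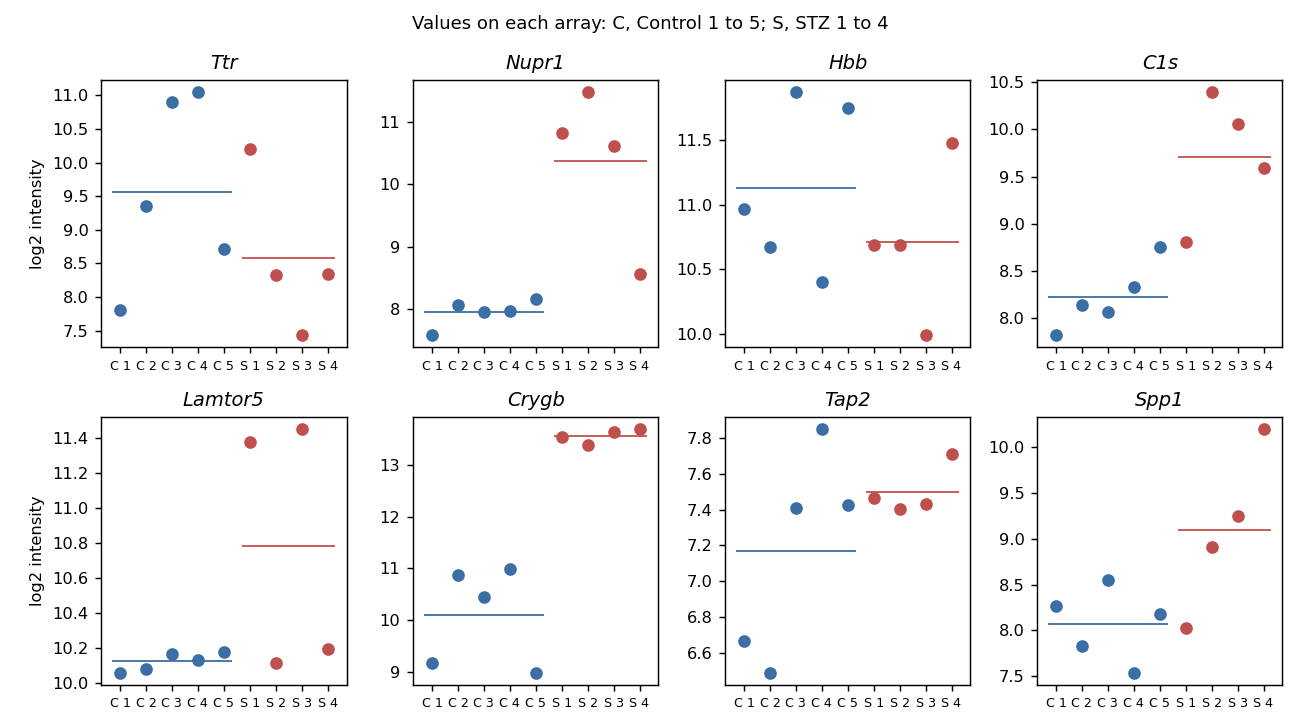
Log2 intensity of 8 genes on each array (C, Control 1 to 5; S, STZ 1 to 4), with group means as lines. Each vertical axis has its own range. STZ 1 is high for Ttr and low for C1s, STZ 4 is low for Nupr1 and high for Spp1, STZ 1 and STZ 3 are high for Lamtor5, and the STZ arrays are close together for Crygb and Tap2.

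Fewer genes had the wider spread among Control retinas. Ogfod3, a member of an oxygenase family, was at 9.52 and 9.50 on Control 3 and 4 and at 8.98 to 9.05 on the others, with STZ levels of 9.11 to 9.14 (SD 0.276 against 0.0147, limma adjusted p = 0.04). Ech1, a peroxisomal and mitochondrial enzyme of fatty acid oxidation, was at 10.19 and 10.15 on Control 3 and 5 and at 10.71 to 10.78 on the other Control arrays, and its STZ levels were 10.85 to 10.99 (limma adjusted p = 0.049). Crygb completed the called genes with a symbol (limma adjusted p = 0.0495), and 3 called probes carried none. With median centering, Ogfod3, Ech1 and Crygb had limma adjusted p of 0.204, 0.224 and 0.0721 and kept the larger Control SD. Below the adjusted threshold, Cd63 (a tetraspanin of late endosomes) was at 10.12 and 10.23 on Control 1 and 2 and at 9.27 to 9.39 on Control 3 to 5. Control 3 to 5 lay on both BeadChips. Rnf115, a ubiquitin ligase, was high on the same Control arrays, at 10.11 and 10.09 against 9.75 to 9.78.

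Several Control-wide genes owed their SD to 1 array. Nts (neurotensin) was at 7.87 on Control 1 and at 6.33 to 6.76 on Control 2 to 5. Ncor1 (a nuclear receptor corepressor) was at 10.84 on Control 2 and at 9.68 to 9.93 elsewhere among Control arrays. Il33 (an alarmin cytokine, in the retina expressed by Müller glia) was at 10.24 on Control 5 and at 10.91 to 11.15 on Control 1 to 4. Cited2 (a transcriptional coregulator) was likewise low on Control 5, at 10.24 against 10.94 to 11.31. The cytoskeletal gene Actb, a common reference, had SDs of 0.140 (Control) and 0.0396 (STZ; limma adjusted p = 0.49), and its log2 SD ratio of -1.83 was -0.315 with median centering.

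The gamma crystallins, structural proteins of the lens fibre that are also transcribed in retina, included 3 members with a larger SD among Control arrays. Only Crygb passed the adjusted test of spread (limma adjusted p = 0.0495, against 0.116 for Crygc and 0.589 for Crygd). Crygb was at 9.18, 10.87, 10.44, 10.99 and 8.99 on Control 1 to 5 and at 13.54, 13.37, 13.63 and 13.69 on STZ 1 to 4. Crygc was at 9.88, 12.08, 11.36, 11.24 and 9.96 and then at 14.21, 14.06, 13.93 and 14.17. For both genes, Control 2, 3 and 4 were high, Control 1 and 5 were low, and every STZ array lay above every Control array. Their SDs were 0.947 and 0.957 among Control and 0.136 and 0.126 among STZ arrays. Crygd had SDs of 1.00 and 0.496, and its Control 4 stood alone at 9.84 against 7.30 to 8.35. Without Control 4 its log2 SD ratio turned from -1.01 to 0.15. Cryge, with STZ levels of 11.13 to 12.58, did not share the narrow STZ spread (SDs 0.502 and 0.659). The STZ levels of Crygb and Crygc lay near the top of the scale, whose highest value was 14.37. The 178 probes with a mean level of 13 or more had a median SD of 0.0721 among Control and 0.101 among STZ arrays, so probes that bright varied little in either group. Whether saturation narrowed the crystallin values was not tested.

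The bright alpha and beta crystallins varied little in both groups, with SDs of 0.0320 and 0.0622 for Cryab and 0.101 and 0.154 for Cryba1. The other 7 lens fibre genes measured did vary, and in common. Control 2 was the highest Control array for 7 of 7, with a mean deviation of 0.85. Among STZ arrays, STZ 3 was highest for 5 and STZ 1 for 2, and STZ 2 was lowest for 4 and STZ 4 for 3. Lgsn (lengsin) was at 8.10, 10.04, 9.10, 8.77 and 7.93 on Control and at 13.83, 13.16, 14.07 and 11.58 on STZ arrays. Mip, the water channel of lens fibres, had one of the largest SDs in both groups (1.33 and 1.53), with 7.64 on Control 3 and 12.48 on STZ 1 as its extremes (log2 SD ratio 0.20, or -2.16 without STZ 1). Not all lens fibre genes ordered the Control retinas as the gamma crystallins did. Bfsp1 (a beaded filament protein) was at 10.90 on Control 2 and 8.93 on Control 4, whereas Crygb was nearly equal on both. Lgsn, in contrast, was higher on Control 2, 3 and 4 than on Control 1 and 5, as were Crygb and Crygc.

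Several genes of the pigment epithelium varied together in both groups. Ttr (transthyretin, a carrier of thyroxine and of retinol-binding protein) was at 7.80, 9.35, 10.91, 11.05 and 8.72 on Control 1 to 5 and at 10.20, 8.33, 7.43 and 8.35 on STZ 1 to 4. Rgr (an opsin of pigment epithelium and Müller glia) was at 7.96, 8.87, 10.59, 10.84 and 8.60 and at 9.53, 7.88, 7.56 and 7.97. Rpe65 (the retinoid isomerase of the visual cycle) was at 6.59, 7.43, 8.43, 8.65 and 7.35 and at 7.87, 6.64, 6.53 and 7.02. All 3 genes gave the same order of Control arrays, with 4 and 3 high and 1 low, and were highest on STZ 1 and lowest on STZ 3. Their SDs were 0.608 to 1.16 among STZ and 0.848 to 1.40 among Control arrays, and their limma adjusted p was 0.49 or more. Over the 11 list members measured, the mean deviation was 0.43 on Control 3, 0.41 on Control 4, -0.49 on Control 1 and 0.54 on STZ 1. STZ 1 was the highest STZ array for 8 of the 11. The median log2 SD ratio was 0.34, against 0.34 for all probes, and became -0.27 without STZ 1 and -0.14 without STZ 3. Tyrp1, a melanosome enzyme, was at 8.03 on STZ 1 and at 6.51 to 7.03 on STZ 2 to 4, and its log2 SD ratio was 1.41 with and 0.05 without STZ 1. Without STZ 1 the ratios of Ttr, Rgr and Rpe65 were -1.42, -2.55 and -1.71, against -0.27, -0.53 and -0.48 with it.

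The 250 bases upstream of the annotated start of these 3 genes are shown because the genes rank the retinas alike. They are from RefSeq (GRCr8), 5′ to 3′ on the strand of the gene, with capitals for TAATCC, the core bound by OTX homeodomain proteins, or for its complement on the other strand.
Ttr, chr18:12218508-12218757, + strand: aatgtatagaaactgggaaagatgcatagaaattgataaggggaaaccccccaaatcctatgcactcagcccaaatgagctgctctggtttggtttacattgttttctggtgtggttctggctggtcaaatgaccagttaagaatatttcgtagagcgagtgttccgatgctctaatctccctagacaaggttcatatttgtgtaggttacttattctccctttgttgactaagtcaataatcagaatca
Rgr, chr16:12836487-12836736, - strand: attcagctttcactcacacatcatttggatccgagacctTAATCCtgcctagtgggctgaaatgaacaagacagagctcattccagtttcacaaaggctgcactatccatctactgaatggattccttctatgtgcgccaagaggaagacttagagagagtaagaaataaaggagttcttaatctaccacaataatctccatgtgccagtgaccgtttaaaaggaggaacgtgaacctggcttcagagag
Rpe65, chr2:251425118-251425367, + strand: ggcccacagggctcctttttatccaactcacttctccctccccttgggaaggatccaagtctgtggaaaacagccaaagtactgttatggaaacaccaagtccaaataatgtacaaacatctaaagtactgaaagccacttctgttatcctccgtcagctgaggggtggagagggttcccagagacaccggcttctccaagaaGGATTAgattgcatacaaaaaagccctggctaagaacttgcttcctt
The letters TAATCC occurred in 2 of the 3 windows and in 2121 of 33469 upstream windows of the same length (6.34%), counted on both strands. The 3 genes were chosen after their values were seen and only this motif was counted, so these shares are no test of enrichment. Binding was not measured.

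**Figure D3:**
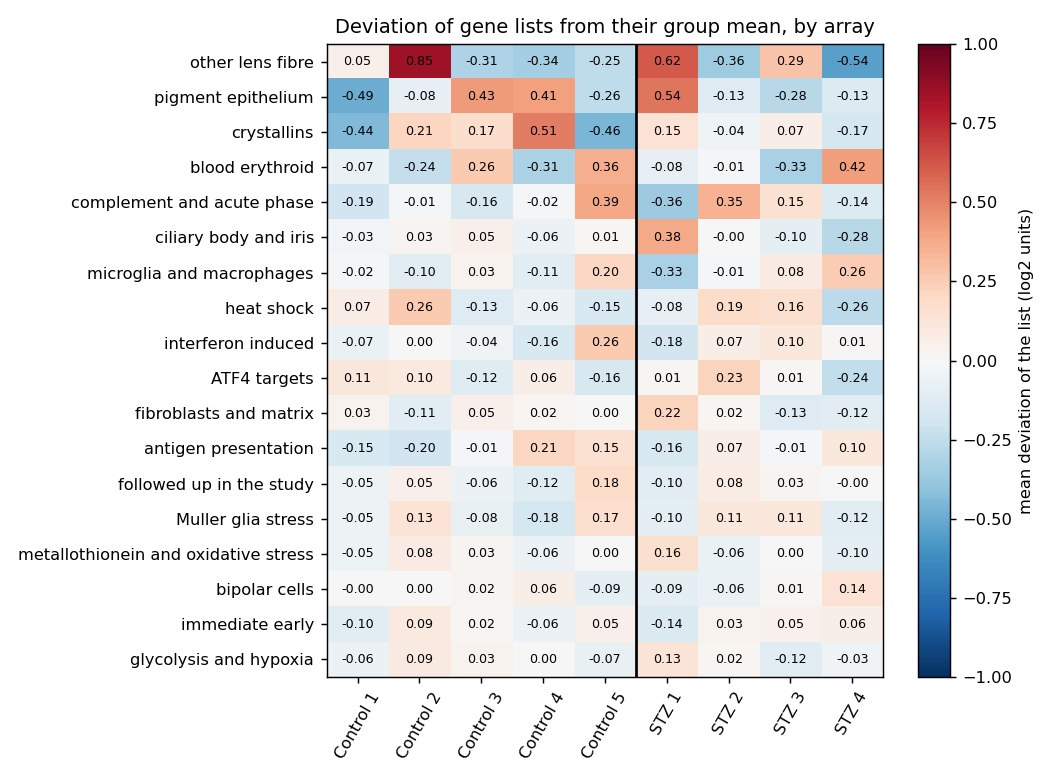
Mean deviation of the measured members of 18 gene lists from their group mean (log2 units, color and printed number) on each array, with Control arrays left of the vertical line. The lists shown are those of 5 or more genes with the largest absolute deviations. Pigment epithelium genes are high on Control 3, Control 4 and STZ 1, complement genes on Control 5 and STZ 2, and erythroid genes on Control 3, Control 5 and STZ 4.

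The ciliary body and iris list had the largest median log2 SD ratio of any list of 5 or more genes, 2.07 over 7 genes, of which 6 had the larger SD among STZ arrays, against 65.6% of all probes. At an unadjusted p under 0.05, 4 were wider in STZ (Optc, Aqp1, Col18a1 and Wfdc1) and 1 was wider in Control (Ptgds, the prostaglandin D synthase), against 10.3% and 2.16% of all probes. None passed the adjusted threshold. STZ 1 was the highest STZ array for 4 of the 7 members, with a list mean deviation of 0.38, but not for all. Col18a1 was high on STZ 1 (9.12 against 8.31 to 8.53), with a log2 SD ratio of 2.24 with and 0.80 without STZ 1. Wfdc1 was highest there too (10.83 against 10.16 to 10.43), with a ratio of 2.63 with and 1.72 without STZ 1. Aqp1, a water channel, was instead low on STZ 4 (7.93 against 9.11 to 9.62). The list median was 0.80 without STZ 1 and 0.96 without STZ 4.

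Complement and acute phase genes moved as a block. Of the variance of the 7 members, 82.3% among Control and 67.4% among STZ arrays lay along the mean of the list. Control 5 was the highest Control array for 7 of 7, and STZ 2 the highest STZ array for 5. STZ 1 was the lowest for 5. C1s (a protease of the first complement component) was at 7.82, 8.14, 8.07, 8.33 and 8.76 on Control and at 8.80, 10.40, 10.05 and 9.59 on STZ arrays. Thus STZ 1 lay next to Control 5 and far from the other diabetic retinas. C1r, its partner protease, was at 8.06, 8.16, 8.15, 8.24 and 8.65 and at 8.55, 9.43, 9.14 and 8.77, so that STZ 1 lay below Control 5. Serping1, the inhibitor of both proteases, was at 8.52 to 8.72 on Control 1 to 4, 9.20 on Control 5, and 10.16, 10.86, 10.44 and 9.92 on STZ arrays. The median log2 SD ratio was 0.54, with 5 of 7 larger in STZ, near the 65.6% of all probes, and was 0.21 without STZ 1 and 1.57 without Control 5. C2 alone had an unadjusted p under 0.05 (SDs 0.143 and 0.253).

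Control 5 was also the highest Control array for Lcn2 (lipocalin 2, an acute phase protein, 9.51 against 8.12 to 8.88), Fgf2 (8.11 against 7.06 to 7.47), Ifitm3 (an interferon-induced membrane protein, 10.29 against 9.30 to 9.84) and Edn2 (endothelin 2, 7.87 against 7.04 to 7.24). Fgf2 and Edn2 are known to be induced in injured retina. Among STZ arrays Ifitm3 was nearly constant (10.45 to 10.71; SD 0.120 against 0.400 among Control), whereas Edn2 ranged from 7.85 to 9.41 with STZ 2 and STZ 4 high (SDs 0.743 and 0.327). Of 15 genes of Müller glia stress, 10 had the larger SD among STZ arrays, with a median log2 ratio of 0.21, near the 65.6% and below the 0.34 of all probes. At an unadjusted p under 0.05, 3 (Anxa1, Anxa3 and Edn2) were wider in STZ, against 10.3% of all probes.

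Blood erythroid genes were matched in spread between groups. Hbb (beta globin) was at 10.97, 10.67, 11.87, 10.40 and 11.75 on Control and at 10.69, 10.69, 9.99 and 11.48 on STZ arrays. Hba-a1 (alpha globin) was at 12.58, 12.49, 13.18, 12.16 and 13.48 and at 12.34, 12.23, 11.80 and 13.10. Control 3, Control 5 and STZ 4 were thus high for both chains. The median log2 SD ratio over 6 genes was -0.16, with 2 larger in STZ and 4 in Control. None of the blood leukocyte genes listed was detected on all arrays.

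Spp1 (osteopontin, a secreted phosphoprotein of ganglion cells and activated microglia) was at 8.02, 8.91, 9.25 and 10.20 on STZ 1 to 4 and at 7.54 to 8.55 on Control arrays (SDs 0.898 and 0.392, limma adjusted p = 0.50). The other 5 microglial genes measured had SDs of 0.0949 to 0.197 among Control and 0.130 to 0.212 among STZ arrays. STZ 1 was the lowest STZ array for 5 of the 6.

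Some antigen presentation genes of the RT1 region, the major histocompatibility complex of the rat on chromosome 20, divided the Control retinas. Tap2 (a peptide transporter) was at 6.67 and 6.49 on Control 1 and 2, at 7.41, 7.85 and 7.43 on Control 3 to 5, and at 7.40 to 7.71 on STZ arrays (SDs 0.569 and 0.141, limma adjusted p = 0.19). RT1-A1, a class I molecule, was at 7.90, 7.85, 8.38, 9.02 and 8.94 on Control and at 9.02, 9.56, 8.98 and 10.24 on STZ arrays. RT1-DMb, Tapbp and Vps52, which lie in the same region, were also lower on Control 1 and 2 than on each of Control 3 to 5. Of 17 genes of that stretch detected, 8 had this order, against 11.5% of all probes. Psmb8, an immunoproteasome subunit gene of the same stretch, did not have it (8.57, 8.52, 8.44, 8.32 and 8.72) and was more variable among STZ arrays (log2 SD ratio 1.08, unadjusted p = 0.0116 and adjusted p = 0.29 by limma). The median log2 SD ratio of the 17 genes was 0.42. The stretch was chosen after these values were seen. Its bounds were set by Tap2, Tapbp and RT1-DMb, which are themselves among the 8. The count is therefore no test of the region. Control 3 to 5 lay on both BeadChips. Many RT1 genes are polymorphic and closely similar to one another, so single values are uncertain as to the gene.

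Most glycolysis and hypoxia genes had the larger SD among STZ arrays, and none passed the adjusted test. Of 17 genes, 14 (82.4%) had the larger SD among STZ arrays, against 65.6% of all probes, and the median log2 SD ratio was 0.88 against 0.34. At an unadjusted p under 0.05, 4 were wider in STZ and 0 in Control, against 10.3% and 2.16% of all probes. Bnip3 (a mitochondrial protein induced by hypoxia) had the largest SD of the list in both groups and was more variable among Control arrays (SDs 0.529 and 0.372). Gpi (glucose phosphate isomerase) was at 13.94 to 14.04 on Control arrays and at 13.65, 13.90, 13.59 and 13.94 on STZ 1 to 4. Eno1 (enolase) was at 10.93 to 11.03 on Control arrays and at 11.23, 10.74, 10.67 and 10.72 on STZ arrays. Pfkm, the muscle type of phosphofructokinase, was at 10.04 to 10.16 and at 10.34, 10.13, 9.61 and 9.95. For Eno1 and Pfkm, STZ 1 lay above all Control arrays. Below all Control arrays lay STZ 2, STZ 3 and STZ 4 for Eno1, and STZ 3 and STZ 4 for Pfkm. STZ 1 was the highest STZ array for 10 of the 17 and STZ 3 the lowest for 10, with list means of 0.13 and -0.12, and 20.4% of the variance among STZ arrays lay along the mean of the list. The list's median ratio was 0.48 without STZ 1, 0.59 without STZ 3 and 0.40 with median centering, when that of all probes was 0.10, 0.29 and 0.08.

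Heat shock genes had a larger STZ SD in 9 of 10 cases, against 65.6% of all probes, with a median log2 ratio of 0.63 that was 0.09 without STZ 2. Control 2 was the highest Control array for 7 and STZ 2 the highest STZ array for 8. Hspb1, a small heat shock protein, was at 8.42, 9.24, 8.01, 8.10 and 8.01 on Control and at 12.51, 11.77, 12.72 and 10.82 on STZ arrays, so that Control 2 and STZ 4 stood out. Hspa5, the chaperone of the endoplasmic reticulum, was at 12.70 to 13.13 on Control and at 12.53, 13.31, 13.06 and 12.68 on STZ arrays (unadjusted p = 0.016 by limma).

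Each count of this paragraph stands against 65.6% of all probes with a larger STZ SD, and the cone, ganglion cell, oxidative phosphorylation and ribosomal counts lay near it. Rod genes had small SDs that were larger among STZ arrays in 16 of 20, and a median log2 ratio of 0.59 that was 0.51 to 0.71 when single arrays were left out and 0.39 with median centering. Pdc (phosducin) was at 13.77 to 13.91 on Control and at 13.89, 13.64, 14.00 and 13.71 on STZ arrays. Of 11 cone genes, 6 had the larger STZ SD, and Gnb3 (a cone transducin subunit) was at 11.21 on STZ 4 against 10.07 to 10.33 on STZ 1 to 3. Amacrine and horizontal cell genes went the other way in count, with 6 of 16 larger in STZ and a median of -0.06. That median was -0.265 to 0.217 when single arrays were left out and 0.03 with median centering. Vip (vasoactive intestinal peptide) was the member with the largest STZ SD, at 9.52 on STZ 4 against 8.53 to 8.79. Ganglion cell genes were larger in STZ for 11 of 15 and endothelial genes for 8 of 8, with medians of 0.42 and 0.47, both near the 0.34 of all probes. The ganglion cell median was 0.06 without STZ 1 and -0.20 with median centering, and the endothelial median was -0.63 without STZ 4. Small SDs in both groups were found for oxidative phosphorylation (median SDs 0.0630 and 0.0901 over 29 genes, 21 larger in STZ, with a median log2 ratio of 0.21 that was -0.12 with median centering) and the cytosolic ribosomal proteins (0.0952 and 0.101 over 55 genes, 32 larger in STZ).

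**Figure D4:**
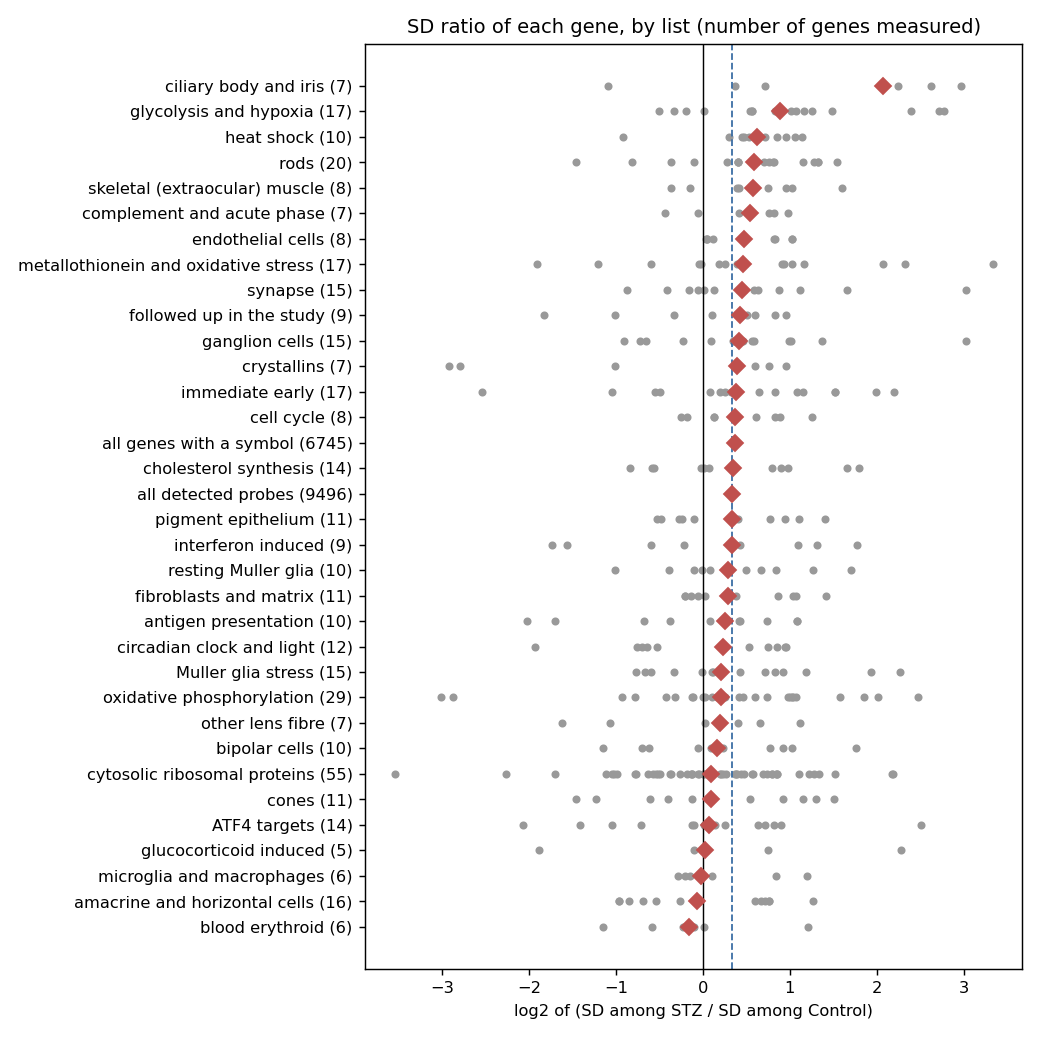
Log2 ratio of the SD among STZ to the SD among Control arrays for each measured gene (gray points) of each list of 5 or more genes, with the list median (red diamonds). The dashed line is the median of all 9496 probes, 0.34, and the numbers in brackets give the genes measured. The ciliary body and iris list, at 2.07, and the glycolysis list, at 0.88, have the largest medians. For all probes and all genes with a symbol only the median is drawn.

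Some genes with large SDs in both groups took 2 discrete levels that crossed the groups. Washc3 (a subunit of the endosomal WASH complex) was at 6.47 to 6.61 on 5 arrays and at 9.01 to 9.24 on Control 2, Control 5, STZ 1 and STZ 4, with no array between. Rpl30, a ribosomal protein, was at 11.59 to 11.95 on Control 2, Control 5, STZ 2 and STZ 4 and at 8.72 to 9.49 on the others. Rps9 was low on Control 4 (7.11), STZ 1 (7.77) and STZ 4 (7.39) and at 11.18 to 12.39 on the other 6 arrays. Umps (the last enzyme of uridine monophosphate synthesis) was at 8.46 to 9.18 on Control 1, Control 2, STZ 1 and STZ 3 and at 7.44 to 7.58 elsewhere. By a rule set after such values were seen (a gap between neighboring arrays of at least 0.5 log2 units and 50% of the range, with both groups on both sides), 17 of 9496 probes (0.179%) had such levels, 10 of them with a symbol. Cmc1, Sorbs2, Impa2, Cep57, Spock2 and Mfhas1 were the others with a symbol. The high arrays of Washc3, Rpl30, Rps9 and Umps were 4 different sets. Ribosomal protein genes have many near-identical copies, so the values of Rps9 and Rpl30 are uncertain as to the gene. All these values are probe intensities, no genotypes were used here, and whether the levels follow transcript amounts was not tested.

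**Figure D5:**
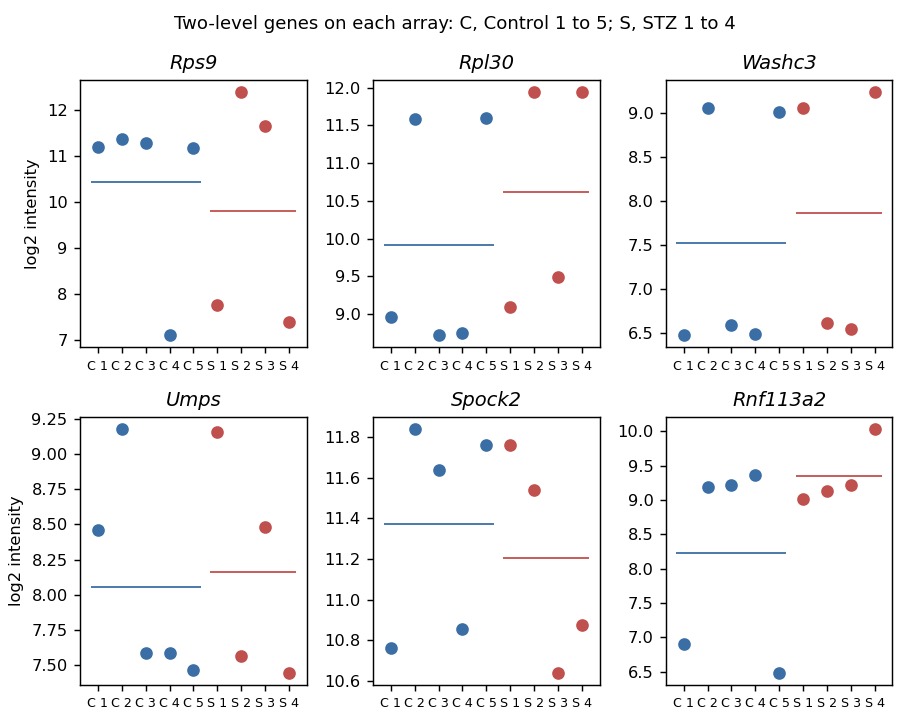
Log2 intensity of 6 genes on each array (C, Control 1 to 5; S, STZ 1 to 4), with group means as lines and a separate range on each vertical axis. Rps9, Rpl30, Washc3, Umps and Spock2 have high and low arrays in both groups. Rnf113a2 has low arrays among Control only (6.89 and 6.48).

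Rnf113a2 (a ring finger protein) had such levels among Control retinas only, at 9.18 to 9.37 on Control 2 to 4 and at 6.89 and 6.48 on Control 1 and 5, with STZ levels of 9.02 to 10.03 (SDs 1.41 and 0.461, limma adjusted p = 0.061). Of the 200 probes with the largest SD in each group, 85 (42.5% of each list) were common to both. Dio1 (a deiodinase of thyroid hormone) was in the STZ list only, at 9.70, 10.93, 8.72 and 10.73 on STZ arrays and at 10.72 to 11.06 on Control arrays (SDs 1.02 and 0.125, limma adjusted p = 0.088). STZ 1 and STZ 3 were its low arrays. Col1a2 (a fibrillar collagen) was at 9.08, 8.91, 7.40 and 6.84 on STZ arrays and at 7.65 to 8.87 on Control arrays.

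The genes that the study followed up in further animals differed in how far their levels varied among the diabetic retinas. The means of Fgf2, Cryab, Cryba1 and Actb were not called different between groups (limma adjusted p = 0.127, 0.554, 0.489 and 0.153). Dbi (the acyl-CoA binding protein) was at 13.95 to 14.04 on STZ arrays and 13.51 to 13.70 on Control arrays, with SDs of 0.0374 and 0.0751. Lgals3 (galectin 3) was at 12.28 to 12.97 against 9.53 to 10.55, with SDs of 0.303 and 0.381. Cp (ceruloplasmin) was at 10.42, 11.18, 11.38 and 10.99 against 9.01 to 9.81. Stat3 was at 8.56, 9.12, 9.14 and 9.29 against 8.21 to 8.66, so that STZ 1 lay within the Control range. Fgf2 overlapped between groups, with 7.77, 8.38, 7.50 and 8.40 on STZ arrays. Of the 9 genes of this list measured, Actb included, 0 differed in spread at an unadjusted p under 0.05 by limma, and 6 had the larger SD among STZ arrays. Over all probes these shares were 10.3% wider in STZ, 2.16% wider in Control, and 65.6%.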

How the data were processed

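Retinal RNA was measured on Illumina RatRef-12 BeadChips. The authors averaged beads in GenomeStudio 1.0.6 and deposited an intensity on a linear scale, not normalized between arrays, and a detection p-value per probe and array. The deposited table of processed intensity values, also linear, holds the same arrays after the authors' quantile normalization.

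Intensities were taken to log2 and quantile normalized over all 22226 probes without background correction (limma 3.58.1, R 4.3.3), which narrows the SD of dim probes. A probe was kept if its detection p was below 0.05 on each of the 9 arrays. Absolute deviations from the group mean, times the square root of n/(n - 1), were fitted with lmFit and eBayes (prior following the mean level; two-sided; Benjamini-Hochberg over 9496 probes). The arrays' mean deviations were compared by an exact permutation test. The number of arrays limits the precision, and the p-values rest on single rats with 1 array each. Variation between rats therefore cannot be told apart from that of dissection, RNA or array. The script was tested on simulated data.

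Gene symbols are those of the platform annotation: 13192 probes had 1 symbol, 0 several and 9034 none, and 0 symbols needed an update. For genes with several probes (39) the brightest was used. Named genes are the 10 largest SDs in each group, the 10 largest SD ratios in each direction (SD of at least 0.3), the 10 smallest p in each direction, 2 members of each list and the followed-up genes. Further list members are named beside their list. The genes with 2 levels and of the RT1 region were named after their values were seen. So were some genes of the 200 probes with the largest SD in a group, such as Ripply3. The 36 gene lists and all members were chosen with earlier results of these data known. Group labels came from the sample titles. Python 3.11.15 made the tables. The other background correction, scalings, filters, measures of spread and left-out arrays are given at the end.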

Additional observations from a re-analysis of the deposited data

Results flagged for a closer look

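Of 206 sets of values tested (each of 102 named genes and the array spread, in each group), 12 (5.83%) had 1 array set far from the others by Dixon's ratio, and chance flags about 1 in 20. Among diabetic retinas, STZ 4 was low for Ass1 (10.322, next 11.131) and for the respiratory chain gene Sdha (10.782, next 10.989), and high for the glutathione transferase Gstt2 (9.5926, next 9.4865). STZ 1 was low for the ATP synthase subunit gene Atp5po (13.201, next 13.534) and the cone phosphodiesterase gene Pde6h (9.7925, next 10.072). It was high for melanopsin, Opn4 (8.0338, next 7.763), and for the photoreceptor gene Samd7 (7.9637, next 7.6416). Among Control retinas, Control 5 was low for Il33 (10.238, next 10.915), Control 2 was high for Ncor1 (10.841, next 9.9276) and Control 1 was high for Nts (7.8668, next 6.7567). Control 3 was high for the retinaldehyde-binding protein gene Rlbp1 (11.174, next 10.841), and Control 4 was low for Rps9 (7.1083, next 11.175).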

How the results depend on the processing

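The greater array spread among STZ retinas kept its direction under every alternative run, and 16 of 21 also kept p under 0.05. Those that did not were median centering (0.0171), no detection filter (0.0112), BeadChip 2 only (0.0399, too few splits to pass), the replicate block (0.0293) and the set without STZ 1; leaving out single arrays gave 0.0155 to 0.0357. Probes called wider in STZ (10) numbered 33 with normexp, 18 with median centering, 1 with deviations from the group median, 0 by the F test and 0 to 17 with single arrays left out. That count was 0 without any single STZ array, when the pattern of pairs cannot form. It was 6 without Control 3, 5 without Control 5 and 17 without Control 2. Probes called wider in Control (6) numbered 0 with squared deviations, 0 with the group median, 0 by the F test, 1 within BeadChips, 51 on BeadChip 2 (where that group has 2 arrays with equal deviations) and 1 to 11 with single arrays left out. Probes at least 2-fold wider in STZ (2130) numbered 1335 with median centering, 3409 without a filter, 1262 among the brighter probes and 4708 on BeadChip 2. Those at least 2-fold wider in Control (755) numbered 2731 without a filter, 292 among the brighter probes and 708 to 1574 with single arrays left out. The 2-fold counts among the brighter probes cover fewer probes, and those without a filter more; otherwise the cause was not tested. No gene called at an adjusted p under 0.05 turned its direction under any alternative.

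The deviations of same-numbered Control and STZ arrays were correlated at r = -0.084, 0.128, -0.058 and 0.095, and no label says that a number marks a shared pair, so the arrays were treated as unpaired. With the replicate block, 1 probe was called wider in STZ and 1 wider in Control, and the array spread differed by 0.0293 (exact permutation of signs p = 0.125, the smallest it allows). Dim probes, near background, limit the measured spread.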
